A study of Mus musculus with 8 samples.

Results

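MicroRNAs of the mouse hippocampus were compared between 10 d and 12 h after status epilepticus, a prolonged seizure state that is followed by a seizure-free latent stage. Small RNA tags were counted in 4 of the 8 small RNA libraries of the series, libraries 1 and 2 at 12 h and libraries 3 and 4 at 10 d, chosen by the time in their column names. All animals were C57BL/6 mice, and both groups had been through status epilepticus, so neither is an untreated group. The agent that induced the seizures and the age and sex of the mice are not stated. For mRNA, cDNA of 2 animals was pooled per replicate. Nothing says whether the small RNA came from the same pools, so the p-values here reflect the spread of 4 libraries that may be technical in part. Library size ran from 545672 to 3325374 tags. The table named 1251 miRNAs, of which 749 had at least 1 tag in these 4 libraries and 417 had enough tags to be tested. The other 332 with a tag had at most 40 tags over the 4 libraries together. In bulk tissue, more cells of a type and more RNA per cell cannot be told apart.

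A microRNA (miRNA) is a short RNA that guides an Argonaute protein to messenger RNAs, which are then degraded or translated less. Targets are chosen mainly by the seed, bases 2 to 8 of the miRNA, so miRNAs with the same seed form a family. In brain, some miRNAs belong largely to neurons, others to glia, blood vessels or immune cells, and a few are induced by synaptic activity or by inflammatory signalling.

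At 10 d the tags of miRNAs linked to inflammation, miR-146a-5p, miR-21a-5p and miR-142-5p, were more abundant than at 12 h. So were both miRNAs of the activity-regulated pair miR-132-3p and miR-212-3p, along with miR-10a-5p, miR-145a-5p, miR-15b-5p, miR-455-3p, miR-23a-3p and let-7b-5p. Only 4 were lower by the same test, miR-153-3p, miR-148a-3p, miR-488-3p and miR-101a-3p. Thus 11 rose and 4 fell of 417 tested at an adjusted p under 0.05, which is 2.64% and 0.959%, or 3.60% in either direction. The shift was of moderate size, as 7 of the 11 rises and 0 of the 4 falls were at least 2-fold (edgeR, where 78 miRNAs had an unadjusted p under 0.05).

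The mature sequences of most of these miRNAs are shown because the seed, in capitals, sets which of them share targets. They are RefSeq sequences (GRCm38.p6), 5′ to 3′, and 358 of the 417 tested miRNAs were found there by name. Those that rose were as follows.
miR-146a-5p: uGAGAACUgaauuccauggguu
miR-21a-5p: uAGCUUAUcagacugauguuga
miR-132-3p: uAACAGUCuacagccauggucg
miR-212-3p: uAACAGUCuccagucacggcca
miR-10a-5p: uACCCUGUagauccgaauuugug
miR-15b-5p: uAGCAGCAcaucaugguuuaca
miR-455-3p: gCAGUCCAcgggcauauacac
miR-23a-3p: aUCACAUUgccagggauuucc
let-7b-5p: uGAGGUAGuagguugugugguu

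Those that fell were as follows.
miR-153-3p: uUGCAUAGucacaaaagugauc
miR-148a-3p: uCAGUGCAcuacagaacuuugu
miR-488-3p: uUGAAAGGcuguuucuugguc
miR-101a-3p: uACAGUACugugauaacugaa

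Of these, only miR-132-3p and miR-212-3p had a seed in common, AACAGUC. Over the 358 miRNAs with a sequence there were 295 different seeds, and 40 were shared by 2 or more tested miRNAs. That of miR-132 and miR-212 was the only one with more than 1 member past the threshold.

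miR-146a-5p, which is induced by NF-kappaB and targets the signalling genes Irak1 and Traf6, showed the largest rise. It lies at chr11:43187937-43187958 on the minus strand of mm9, outside the genes annotated there on that strand. Its level was 2308 and 2526 CPM (counts scaled to library size with TMM factors) in the 12 h libraries, and 8963 and 10499 CPM in the 10 d libraries. Both 10 d libraries thus stood well above both 12 h libraries. The log2 difference was 2.01 (SE 0.12, 95% interval 1.73 to 2.28), a 4.02-fold rise with an adjusted p of 6.2e-05.

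miR-21a-5p, a miRNA induced in injured tissue that targets Pdcd4, had 979 and 1038 CPM at 12 h, and 2526 and 3008 CPM at 10 d. The groups did not overlap, and the log2 difference was 1.45 (SE 0.12, adjusted p 0.000387). Its locus, chr11:86397622-86397643 on the minus strand of mm9, overlaps an untranslated exon of Vmp1. miR-142-5p, which belongs to cells of the blood lineage including microglia, had 354 and 379 CPM at 12 h, and 933 and 986 CPM at 10 d. This was a log2 difference of 1.38 (SE 0.12, adjusted p 0.000417), again without overlap.

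miR-155-5p, another miRNA of activated macrophages and microglia, was scarce. It had 1.03 and 6.08 CPM at 12 h, and 16.0 and 16.2 CPM at 10 d, which rest on 1, 20, 38 and 9 tags. The groups did not overlap, yet the log2 difference of 1.73 had an interval of 0.62 to 2.84 and did not pass (adjusted p 0.109). It passed without a filter on low counts (adjusted p 0.00129), and without 12 h library 2 the difference was 3.84.

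miR-132-3p and miR-212-3p are made from one transcript that the factor CREB induces in active neurons. They lie at chr11:74987225-74987246 and chr11:74986945-74986966 on the plus strand of mm9, in an intron of the long noncoding RNA 1700016P03Rik. The level of miR-132-3p was 1423 and 1440 CPM at 12 h, and 2285 and 2050 CPM at 10 d, a log2 difference of 0.60 (SE 0.11, adjusted p 0.026). The level of miR-212-3p was 351 and 368 CPM at 12 h, and 576 and 557 CPM at 10 d, a log2 difference of 0.66 (SE 0.13, adjusted p 0.0318). Both rose by similar amounts and without overlap between the times.

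Their partner arms, cut from the other side of the same hairpins, did not pass. miR-132-5p had 338 and 301 CPM at 12 h, and 302 and 356 CPM at 10 d (log2 difference 0.04, 95% interval -0.33 to 0.40). miR-212-5p had 386 and 346 CPM at 12 h, and 425 and 478 CPM at 10 d (log2 difference 0.30, 95% interval -0.03 to 0.63). Of the tags of the miR-132 hairpin, 80.8% and 82.7% were on the 3p arm at 12 h, and 88.3% and 85.2% at 10 d. For miR-212 the 3p share was 47.6% and 51.6% at 12 h, and 57.5% and 53.8% at 10 d. In both hairpins the 3p share was higher in each 10 d library, by 5.03 and 6.09 percentage points on average. Both lay under the 10 points set for naming a shift. Shares without overlap were common, as 52 of the 122 hairpins with at least 100 tags in every library had none, in either direction.

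**Figure D1:**
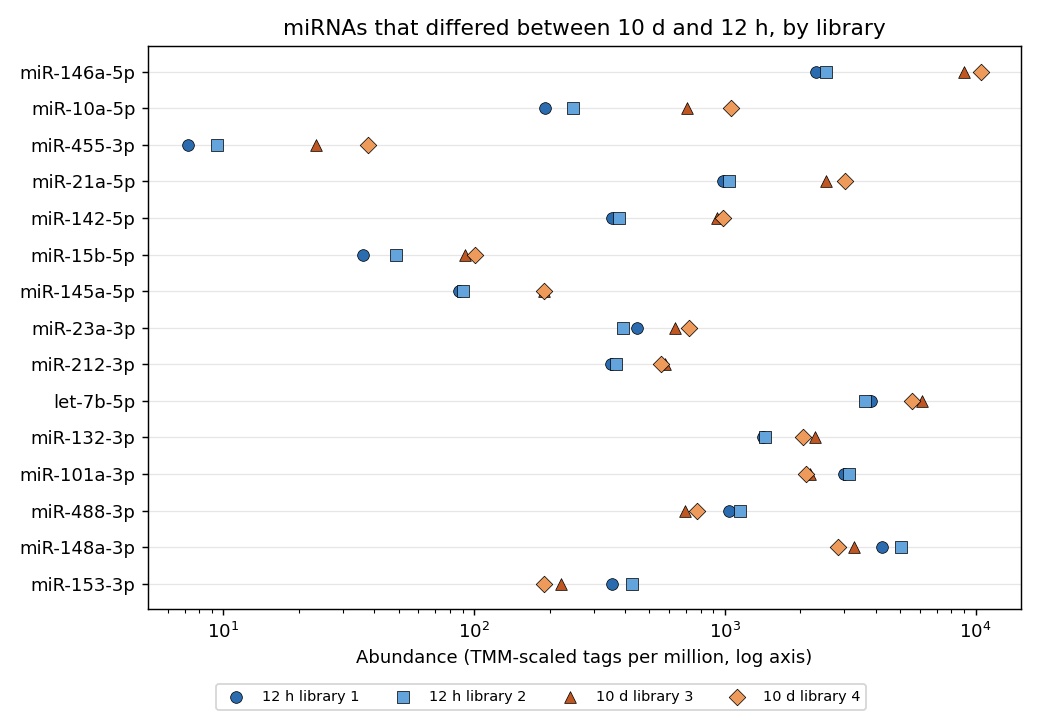
Levels of the 15 miRNAs past an adjusted p of 0.05, in CPM on a log axis, with 1 point for each of the 4 libraries and no error bars. In every row the 10 d points lie on one side of the 12 h points, and miR-146a-5p is the most separated, with 2308 and 2526 CPM at 12 h against 8963 and 10499 CPM at 10 d.

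miR-10a-5p, encoded in the HoxB cluster at chr11:96178500-96178522 of mm9 in an untranslated exon of Hoxb4 on the plus strand, had 192 and 247 CPM at 12 h. At 10 d it had 703 and 1058 CPM, and the log2 difference was 1.99 (SE 0.22, adjusted p 0.00171). The 10 d libraries both lay higher but were further apart from each other than for miR-146a-5p. miR-145a-5p, a miRNA of smooth muscle cells and pericytes, had 86.7 and 90.0 CPM at 12 h and 190.2 and 190.4 CPM at 10 d. Its log2 difference was 1.10 (SE 0.18, adjusted p 0.0175).

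The remaining rises were of miRNAs that are not tied to a single cell type. miR-455-3p, in an intron of the collagen gene Col27a1, was the least abundant, with 7.22 and 9.43 CPM at 12 h and 23.5 and 37.7 CPM at 10 d (log2 difference 1.62, SE 0.31, adjusted p 0.0318). miR-15b-5p, in an intron of Smc4, had 36.1 and 48.7 CPM at 12 h and 92.0 and 100.6 CPM at 10 d (log2 difference 1.14, SE 0.21, adjusted p 0.0313). Both rest on few tags, and their 95% intervals were wide, 0.90 to 2.34 for miR-455-3p and 0.65 to 1.63 for miR-15b-5p.
miR-23a-3p had 446 and 392 CPM at 12 h and 631 and 722 CPM at 10 d (log2 difference 0.69, SE 0.14, adjusted p 0.0343). let-7b-5p, of the family that holds back growth genes such as Hmga2, had 3834 and 3612 CPM at 12 h and 6120 and 5580 CPM at 10 d (log2 difference 0.65, SE 0.10, adjusted p 0.0172). In neither did the times overlap.

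The falls were smaller than the leading rises. miR-153-3p, a brain miRNA in an intron of Ptprn2 (chr12:118489333-118489354, plus strand, mm9), had 355 and 426 CPM at 12 h and 223 and 190 CPM at 10 d. The log2 difference was -0.91 (SE 0.17, adjusted p 0.0313). miR-488-3p, in an intron of the neuronal gene Astn1, had 1035 and 1149 CPM at 12 h and 694 and 778 CPM at 10 d (log2 difference -0.57, adjusted p 0.0365). Both lie within genes on the same strand.
miR-148a-3p had 4250 and 5046 CPM at 12 h and 3275 and 2821 CPM at 10 d (log2 difference -0.61, adjusted p 0.0355). miR-101a-3p, known to target the chromatin gene Ezh2, had 2977 and 3130 CPM at 12 h and 2193 and 2109 CPM at 10 d (log2 difference -0.51, adjusted p 0.0318). No 10 d library reached a 12 h library in any of the 4. Groups without overlap were common, though, as 216 of 417 miRNAs (51.8%) had none, 26.9% with both 10 d libraries above and 24.9% with both below.

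**Figure D2:**
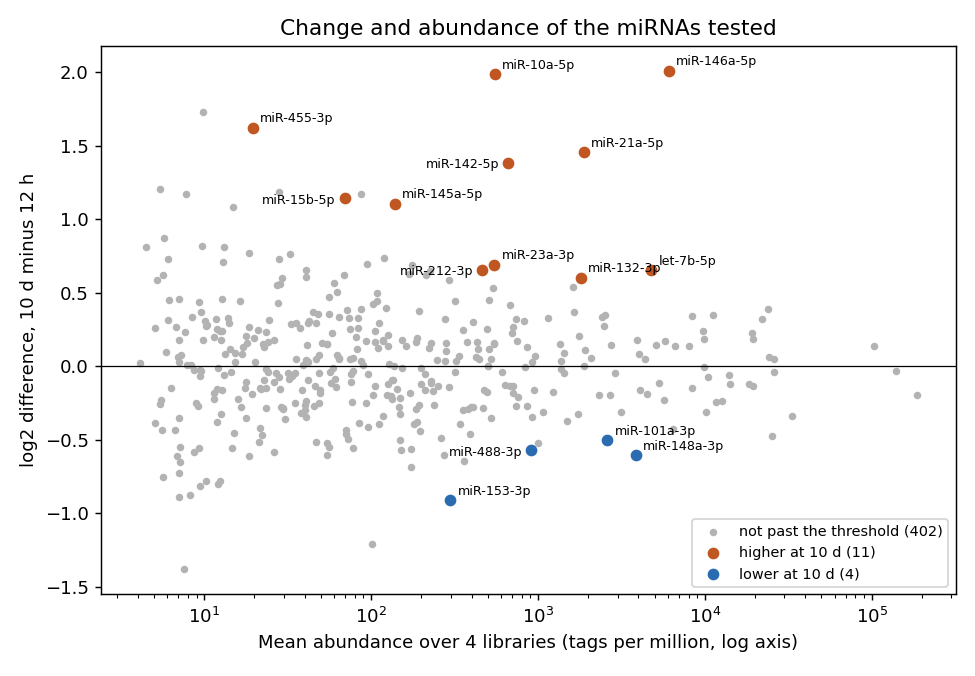
Log2 difference between 10 d and 12 h (vertical axis) against mean level in CPM (log axis) for the 417 miRNAs tested, 1 point each. The 11 rises and 4 falls are coloured and named, and the median of all points is 0.02.

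The number of calls depended on the spread that could be estimated from 2 libraries a time. Without 12 h library 1 or 12 h library 2, edgeR called 0 miRNAs, with 38 and 29 at an unadjusted p under 0.05 and no other tool run. The spread then came from the 10 d libraries alone, and the lone 12 h library was assumed to vary like them. Without 10 d library 3 it called 20 rises and 15 falls, and without 10 d library 4 it called 17 and 9, each time with all 15 among them and with the spread taken from the 12 h libraries alone. The directions of the 15 held in each of these fits, which the lack of overlap between the times largely set in advance. The log2 difference of miR-146a-5p lay between 1.89 and 2.11. DESeq2 called 16 rises and 16 falls. The balance of rises and falls moved with scaling, from 11 and 4 to 11 and 7 with RLE factors and to 7 and 10 with upper-quartile factors. The latter moved the median of all miRNAs by -0.15 on the log2 scale.

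miR-146b-5p has the seed of miR-146a-5p, and miR-10b-5p that of miR-10a-5p, as printed here.
miR-146a-5p: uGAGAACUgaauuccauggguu
miR-146b-5p: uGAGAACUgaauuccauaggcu
miR-10a-5p: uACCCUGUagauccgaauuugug
miR-10b-5p: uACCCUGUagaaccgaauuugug

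miR-146b-5p had 8707 and 9214 CPM at 12 h and 9838 and 11277 CPM at 10 d. Its log2 difference of 0.24 did not pass (adjusted p 0.293), and its interval of -0.02 to 0.49 lay wholly below that of miR-146a-5p. In tag counts, miR-146a-5p thus lay far below miR-146b-5p at 12 h and close to it at 10 d. Whether the 2 miRNAs are captured equally well is not known, as preparation of the libraries is not stated. miR-10b-5p had 166 and 181 CPM at 12 h and 179 and 214 CPM at 10 d (log2 difference 0.17, 95% interval -0.24 to 0.58), which also lay below the interval of miR-10a-5p, 1.48 to 2.49. The difference within each pair was not tested.

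The 9 tested let-7 and miR-98 members with the seed GAGGUAG all had a positive log2 difference, from 0.04 for let-7f-5p to 0.65 for let-7b-5p, with a median of 0.33 against 0.02 over all miRNAs. With upper-quartile factors, and also without 10 d library 3, 6 were positive and 3 negative. Of the 9, let-7b-5p alone passed with TMM factors, and with upper-quartile factors it did not (adjusted p 0.0507). let-7c-5p, the second in size, had 21942 and 19383 CPM at 12 h and 29197 and 24853 CPM at 10 d (adjusted p 0.154). Of the 5 members with a sequence found by name and the seed AGCAGCA, miR-15b-5p was the only one to pass. The 4 others found by name, among them miR-16-5p and miR-15a-5p, had log2 differences between 0.11 and 0.38. miR-16-5p, listed in the same Smc4 intron but also made from a second locus, had 5319 and 5498 CPM at 12 h and 6070 and 6094 CPM at 10 d.

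The 3 miR-29 members with the seed AGCACCA, known to target collagens and Dnmt3a, were lower in both 10 d libraries, at -0.57 for miR-29b-3p, -0.39 for miR-29c-3p and -0.15 for miR-29a-3p. Of these 0 passed in edgeR (2 at an unadjusted p under 0.05), 0 in limma-voom and 1 in DESeq2. miR-29b-3p had 200.2 and 213.8 CPM at 12 h and 138.1 and 141.9 CPM at 10 d (adjusted p 0.132). Of the 4 miR-30 members with a sequence found by name and the seed GUAAACA, 0 passed in edgeR (3 at an unadjusted p under 0.05), 0 in limma-voom and 2 in DESeq2. The most abundant of the 4, miR-30a-5p, had 34882 and 39459 CPM at 12 h and 27924 and 30864 CPM at 10 d (log2 difference -0.34, adjusted p 0.176). miR-30b-5p and miR-30d-5p were tested but are not among the 4. In the whole miR-30 list, 8 of 13 tested miRNAs had a negative log2 difference and 5 a positive one, with a median of -0.04. In the family of miR-148a-3p, miR-148b-3p stood at -0.02 and miR-152-3p at 0.47, both without passing.

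**Figure D3:**
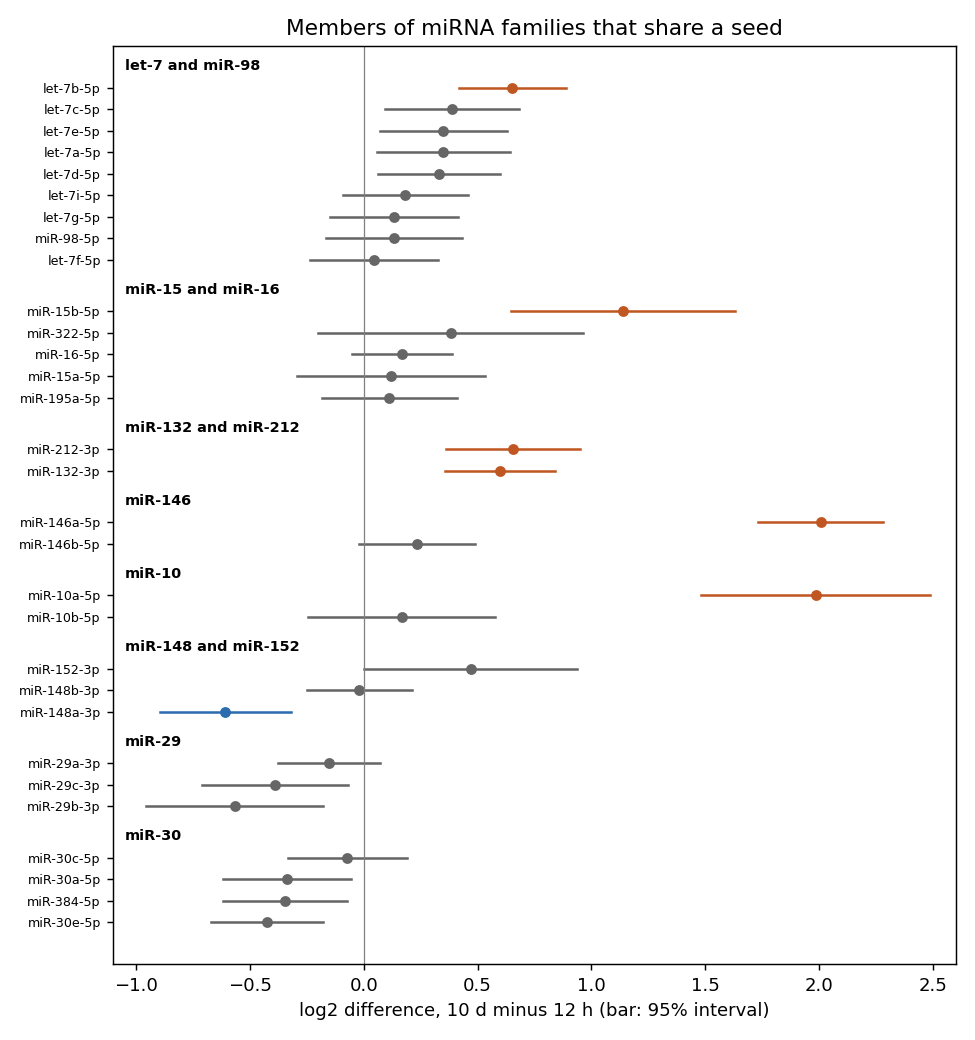
Log2 difference between 10 d and 12 h for members of 8 seed families, with 1 point per miRNA and a bar for its 95% interval. Only miRNAs with a sequence found by name are shown, so a family can have further tested members. miR-146a-5p at 2.01 and miR-10a-5p at 1.99 stand apart from miR-146b-5p at 0.24 and miR-10b-5p at 0.17, and all 9 let-7 and miR-98 points lie above 0, of which 3 fall below it with upper-quartile factors.

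Among miRNAs encoded within 10 kb of each other, sizes of change also varied. miR-143-3p, the neighbour of miR-145a-5p and one of the 10 most abundant here, had 18320 and 21111 CPM at 12 h and 25203 and 24028 CPM at 10 d. Its log2 difference was 0.32 (adjusted p 0.178). The other arm of the miR-145a hairpin, miR-145a-3p, had 90.8 and 73.0 CPM at 12 h and 57.1 and 61.1 CPM at 10 d (log2 difference -0.47, adjusted p 0.262).
The 3p share of miR-145a tags was accordingly 51.2% and 44.8% at 12 h and 23.1% and 24.3% at 10 d. With exact 95% binomial intervals these were 43.4 to 58.9% and 40.5 to 49.1% at 12 h, and 19.7 to 26.7% and 17.4 to 32.2% at 10 d. The intervals cover counting error only. Of 122 hairpins with at least 100 tags in every library, miR-145a was the only one with a shift of 10 points or more and no overlap. The median shift over hairpins was 0.344 points.
In the cluster of miR-23a-3p, miR-27a-3p stood at 0.25 and miR-24-2-5p at 0.50, neither past the threshold. let-7b-5p lies beside let-7c-5p on chromosome 15, although let-7c-5p is also made from a second locus.

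Lists of miRNAs chosen with earlier results of these data known give the wider picture, each beside the whole, where the median log2 difference was 0.02 and 3.60% passed. Of 13 tested miRNAs linked to inflammation and NF-kappaB, 4 rose (miR-146a-5p, miR-21a-5p, miR-142-5p and miR-132-3p) and 0 fell, with a median of 0.44. Of 8 myeloid and lymphocyte miRNAs, 2 rose, and the median was 0.26. Their summed level was 9749 and 10229 CPM at 12 h and 17951 and 19678 CPM at 10 d. Of its members miR-16-5p was the largest at 12 h and miR-146a-5p at 10 d, with the values given above. The defining myeloid miRNA miR-223-3p had 5, 14, 9 and 4 tags in libraries 1 to 4 and was not tested, and miR-150-5p of lymphocytes had 892 and 981 CPM at 12 h and 1002 and 965 CPM at 10 d. miR-150-5p thus overlapped between times.

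Of 9 activity and CREB regulated miRNAs, 2 rose (miR-132-3p and miR-212-3p) and 0 fell, with a median of 0.30. Of 44 miRNAs reported in experimental epilepsy, 5 rose and 0 fell, with a median of 0.20. Among 20 astrocyte and reactive glia miRNAs 3 rose (miR-146a-5p, miR-21a-5p and miR-23a-3p), with a median of 0.06. Among 8 endothelial and mural cell miRNAs 2 rose, miR-10a-5p and miR-145a-5p, while the endothelial miR-126-3p stood at -0.00 and miR-126-5p at -0.37, neither past the threshold. Of 6 oligodendrocyte miRNAs 1 rose, miR-23a-3p, which other lists also hold. Its member miR-219-2-3p had 479 and 398 CPM at 12 h and 608 and 654 CPM at 10 d (adjusted p 0.109).

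Of 31 neuron-enriched miRNAs, 0 rose and 1 fell, miR-153-3p, with a median of -0.12. miR-124-3p, the best known of them, had 5242 and 5836 CPM at 12 h and 5038 and 5194 CPM at 10 d (log2 difference -0.12, 95% interval -0.35 to 0.12). miR-128-3p had 20360 and 20327 CPM at 12 h and 20736 and 16195 CPM at 10 d, with overlap between times. miR-9-5p had 17482 and 17733 CPM at 12 h and 20389 and 20792 CPM at 10 d (log2 difference 0.23, adjusted p 0.277). miR-134-5p, which limits dendritic spine size through Limk1, had 85.6 and 66.6 CPM at 12 h and 98.3 and 98.8 CPM at 10 d (log2 difference 0.39, adjusted p 0.334). The p53 target miR-34a-5p did not pass either, at 91.8 and 82.7 CPM at 12 h and 95.7 and 141.9 CPM at 10 d.

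The imprinted Dlk1-Dio3 region on chromosome 12 gave 67 tested miRNAs, of which 48 had a negative log2 difference. Their median was -0.17, and 0 passed in edgeR (4 lower at an unadjusted p under 0.05), 0 in limma-voom and 3 lower in DESeq2. Over all 417 miRNAs, 202 were negative, 33 were lower at an unadjusted p under 0.05 in edgeR and 16 were lower in DESeq2, so these call counts are near the background. Its miR-127-3p, the most abundant miRNA in all 4 libraries, held 19.5% and 20.1% of tags at 12 h and 17.5% and 17.4% at 10 d (log2 difference -0.20, adjusted p 0.45). The 10 most abundant miRNAs together held 61.8% and 61.9% of tags at 12 h and 60.4% and 60.3% at 10 d. Among them miR-26a-5p, miR-27b-3p and miR-30d-5p had log2 differences between -0.04 and 0.06, and miR-181a-5p and let-7f-5p overlapped between times. miR-125a-5p had 26624 and 32098 CPM at 12 h and 24952 and 17341 CPM at 10 d (log2 difference -0.47, adjusted p 0.193).

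**Figure D4:**
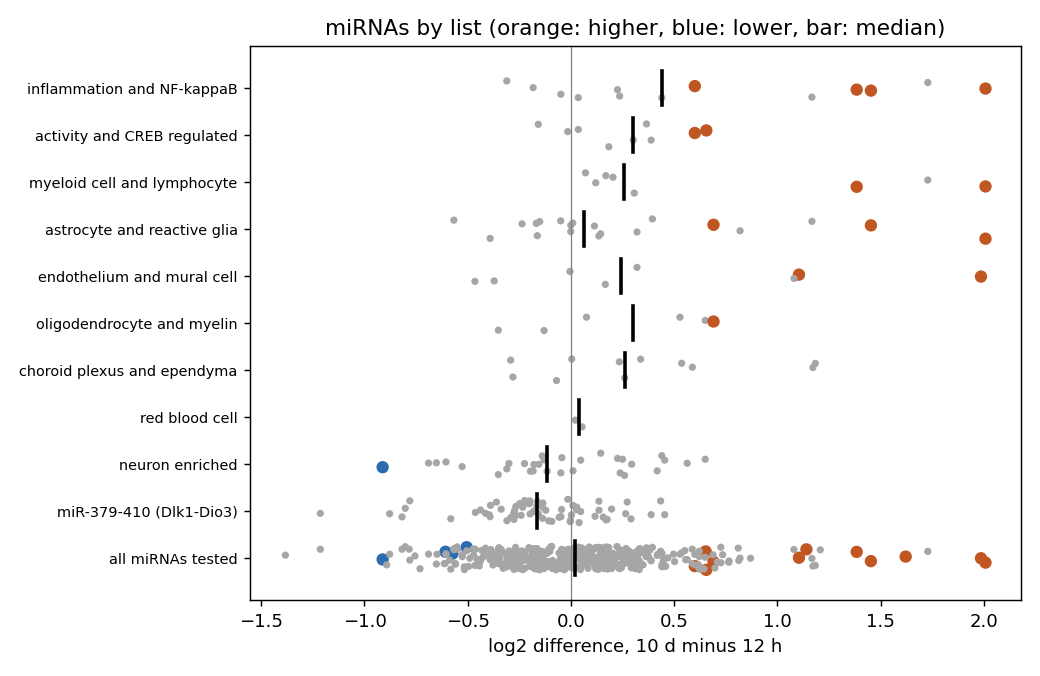
Log2 difference between 10 d and 12 h for the tested members of 10 miRNA lists and for all 417 miRNAs, 1 point per miRNA (vertical scatter within a row has no meaning), with the median as a bar and miRNAs past the threshold in colour. The inflammation list has its median at 0.44 and the Dlk1-Dio3 region at -0.17, and a miRNA can stand in several rows.

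Libraries 3 and 4 at 10 d differed from each other in some miRNAs of choroid plexus and ependyma. The summed level of the 11 tested miRNAs of that list was 8966 and 9262 CPM at 12 h, but 7421 CPM in 10 d library 3 and 16085 CPM in 10 d library 4. miR-204-5p, its most abundant member, had 5888 and 12803 CPM in these 2 libraries, and miR-34c-5p 1101 and 2779 CPM. Of the list 0 passed between times in edgeR, DESeq2 and limma-voom, with 1 at an unadjusted p under 0.05 in each. miR-448-3p and miR-1298-5p, named after their values were seen, lie in introns of Htr2c, a serotonin receptor gene abundant in choroid plexus, and had 29.8 and 208 CPM and 37.8 and 521 CPM in libraries 3 and 4. The part of these differences between the 10 d libraries in the comparison of the times was not tested.

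Some miRNAs also differed with sequencing depth. The deeper libraries, 12 h library 2 and 10 d library 3, correlated across miRNAs with r of 0.99, against 0.988 and 0.979 for the pairs of a time. The 2 shallower libraries had r of 0.976. These are on log2 CPM over miRNAs that are not independent replicates. By the median absolute log2 difference the pairs of a time were the closer, at 0.18 at 12 h and 0.24 at 10 d. It was 0.27 for the deeper and 0.30 for the shallower pair. miR-378b had 547 and 434 tags in the deeper and 11 and 6 in the shallower libraries, 12 h library 1 and 10 d library 4. With depth class as a term, an alternative chosen after the data were seen that leaves 1 residual degree of freedom, 13 miRNAs differed by depth class. Among the 13 were miR-1298-5p, miR-448-3p, miR-34b-3p, miR-34c-3p, miR-34c-5p and miR-204-5p, which were highest in 10 d library 4. For example, the log2 difference of miR-1298-5p was 3.77 for library 4 minus library 3 at 10 d. At 12 h it was -0.42 for library 2 minus library 1. The shallower library thus had the higher level of miR-1298-5p at both times, by far more at 10 d. Also among the 13, miR-182-5p of the choroid plexus and ependyma list went the other way. It stood at -0.70 for shallower minus deeper libraries on the log2 scale. That fit called 35 rises and 22 falls between times, including all 15. Within the deeper pair miR-146a-5p was higher at 10 d by 1.83 and within the shallower pair by 2.19 on the log2 scale. For all 15 both pairs gave the same direction, which had to follow because the times did not overlap in any of them.

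**Figure D5:**
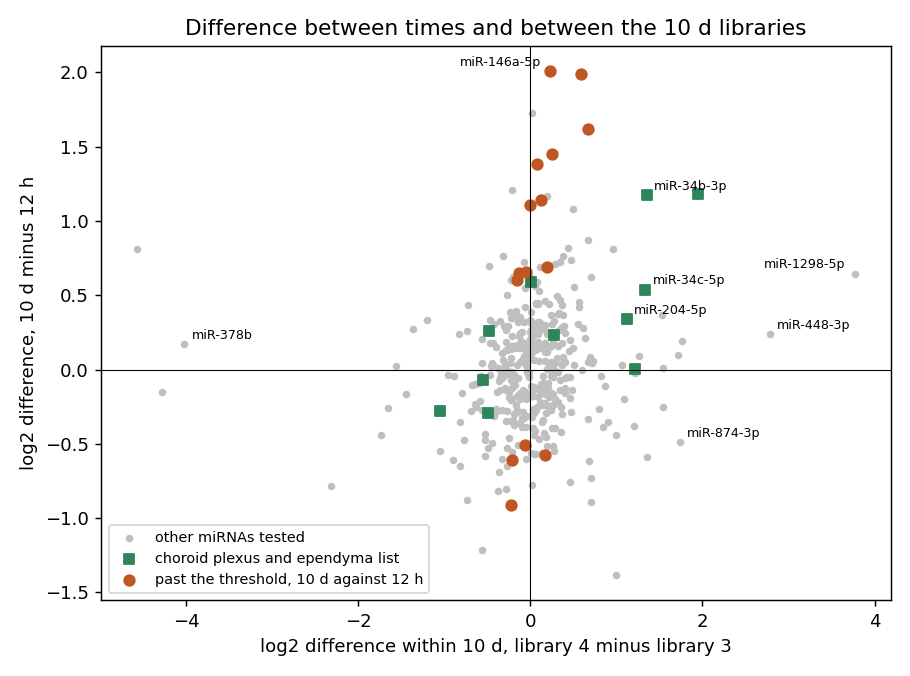
Log2 difference between 10 d and 12 h (vertical axis) against the log2 difference between the 10 d libraries, library 4 minus library 3 (horizontal axis), for 417 miRNAs. Among the 15 miRNAs past the threshold miR-146a-5p lies at 0.23 and miR-455-3p at 0.67 on the horizontal axis, and miR-204-5p, miR-34c-5p and miR-34b-3p of the choroid plexus and ependyma list lie at 1.12, 1.34 and 1.36.

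The markers of blood, muscle and liver given here stood at 99.5 CPM or less. Red blood cell miR-451a had 67.1 and 83.0 CPM at 12 h and 69.3 and 91.6 CPM at 10 d, with overlap. The muscle miRNA miR-133a-3p had 88.7 and 84.5 CPM at 12 h and 99.5 and 73.7 CPM at 10 d. The other of the 2 tested muscle and liver miRNAs, miR-1a-3p, was lower in both 10 d libraries. Its log2 difference was -0.55, which did not pass. The liver miRNA miR-122-5p had 0, 10, 8 and 5 tags in libraries 1 to 4. A count of 0 allows up to 3 tags, which was 3.09 CPM in library 1.

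The control and 6 wk libraries entered no test here, and their levels are given in CPM without TMM factors. miR-146a-5p stood at 2176 and 2768 in control, 2305 and 2498 at 12 h, 8881 and 10710 at 10 d and 10572 and 13248 at 6 wk. miR-132-3p stood at 1641 and 1549 in control, 1421 and 1424 at 12 h, 2265 and 2091 at 10 d and 3532 and 2992 at 6 wk. For miR-146a-5p the 12 h values lay within the control range, for miR-132-3p they lay below it, and for both the 10 d values lay above it. miR-153-3p stood at 183 and 241 in control, 355 and 422 at 12 h, 221 and 194 at 10 d and 170 and 185 at 6 wk. Its 10 d values lay within the control range and its 12 h values above it. miR-101a-3p stood at 1715 and 2142 in control, 2973 and 3096 at 12 h, 2173 and 2152 at 10 d and 2005 and 1780 at 6 wk. Its 12 h values lay above the control range, and its 10 d values lay slightly above it, close to the higher control library.

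For mRNA, the authors took folds at both times against the same control libraries, so the values are set side by side and not compared. They are signed mean folds, in which a value under 1 in size can come from pairs of opposite direction. Of 21 known target genes of these and related miRNAs, 15 had a single set of values in the authors' deposited table. At 10 d 3 of these 15 had a mean q under 0.05, all with a negative fold, and at 12 h 1 had a positive and 2 a negative fold in the authors' deposited table. Over all 18408 genes with a single set of values in the authors' deposited table, 9.58% had a positive and 7.57% a negative fold at that q at 12 h, and 7.53% and 10.6% at 10 d. With so few genes the target counts are given as a description. The 12 others at 10 d did not reach that q.
In the authors' deposited table Traf6, a target of miR-146a, had a mean fold of -8.29 (mean q 2.24e-05) at 12 h and of -9.87 (mean q 0.00325) at 10 d. For the miR-132 target Rasa1, the authors' deposited table gave -2.46 (mean q 0.0433) at 12 h and -13.3 (mean q 6.75e-09) at 10 d. Arhgap32, a miR-132 target in dendrites, is given in the authors' deposited table with 0.423 (mean q 0.228) at 12 h and -1.76 (mean q 4.58e-06) at 10 d. For Spry1, a target of miR-21, the authors' deposited table holds 65.3 (mean q 0.0191) at 12 h and 8.05 (mean q 0.423) at 10 d.
For 6 genes the authors' deposited table holds several sets of values, and they went different ways. Pdcd4, a target of miR-21, had -3.13 and -5.76 at 12 h and -15.3 and -24.4 at 10 d in the authors' deposited table. Dnmt3a, a target of miR-29, had 3.54 and 3.43 at 12 h and 3.68 and 2.30 at 10 d in the authors' deposited table. For Irak1, a target of miR-146a, the authors' deposited table gave 0.00742, 0.659 and 0.592 at 12 h and -0.842, -3.65 and -3.11 at 10 d. Of the genes that hold a miRNA past the threshold, 5 have values in the authors' deposited table. Ptprn2, which holds miR-153, is given in the authors' deposited table with -0.185 (mean q 0.313) at 12 h and -3.67 (mean q 1.75e-13) at 10 d. For Astn1, which holds miR-488, the authors' deposited table gives -1.39 (mean q 1.93e-07) at 12 h and -2.80 (mean q 0.128) at 10 d. Smc4, which holds miR-15b, is at 6.16 (mean q 0.0142) at 12 h in the authors' deposited table and at 2.15 (mean q 0.541) at 10 d. Col27a1, which holds miR-455, is at 8.20 (mean q 0.0568) at 12 h in the authors' deposited table and at 0.666 (mean q 0.0978) at 10 d. Hoxb4, which overlaps miR-10a, is at 1.03 (mean q 0.759) and 1.07 (mean q 0.757) at these times in the authors' deposited table. Among 9 miRNA pathway genes in the authors' deposited table, 1 had a positive and 1 a negative fold with a mean q under 0.05 at 12 h, and 2 and 2 did at 10 d. The negative one at 12 h was Eif2c2 at -0.0452, and 1 of those at 10 d was Dicer1 at -0.748, in the authors' deposited table. Both are under 1 in size, so their direction is not settled. Whether any of these mRNA values is linked to the miRNA levels was not tested.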

How the data were processed

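Small RNA was measured in 8 hippocampal libraries, 4 of which were compared here. The authors deposited whole-number tag counts per mature miRNA, repeated on every gene row a miRNA was annotated to, per the file headers. One value per miRNA name was kept, and the rows of a name did not differ. Preparation and mapping of the small RNA libraries are not stated. Depth was 545672 to 3325374 tags, so that 3 tags correspond to 5.5 CPM in the shallowest and 0.902 CPM in the deepest library. For mRNA, the authors deposited a signed mean fold, held here as a score, and a mean q-value per transcript, per the file headers. The submitters' processing notes name mm9. The table's other 24 per-sample columns stayed out.

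Counts were tested in R 4.3.3 with the quasi-likelihood test of edgeR 4.0.16 (TMM, filterByExpr) on the 4 libraries alone, with Benjamini-Hochberg adjustment over 417 miRNAs and a threshold of 0.05. DESeq2 1.42.0 and limma 3.58.1 (voom) were alternatives, besides other scalings, filters, sets of libraries sharing the spread, and left-out libraries. Group membership of a column was read from the time in its header. Coordinates are the deposited ones on mm9. Of 387 loci whose RefSeq sequence lay within 10 bases of them in the NCBIM37 genome, 379 had the deposited start and end. Overlapping genes are from GENCODE. The members and lists were chosen with earlier results of these data known. The rule for names took up to 12 rises and 12 falls past the threshold without overlap, the 10 most abundant miRNAs, up to 3 called members per list by lowest p, and both arms of a set of 17 miRNAs such as miR-132, miR-155 and miR-29a, 55 names in all, of which 48 were tested. Other miRNAs in the text were chosen after their values were seen or belong to a family, cluster or list described. One target gene of the mRNA list is not reported here, and others enter counts only.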

Additional observations from a re-analysis of the deposited data

How the results depend on the processing

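No paired analysis was possible because no library number of the small RNA columns is shared between the times; depth class is a grouping made from the data, not a pairing given by the labels. Over 10 alternatives with all 4 libraries, 7 of the 15 miRNAs past the threshold passed wherever they had an adjusted p. They were miR-146a-5p, miR-21a-5p, miR-142-5p, miR-10a-5p, miR-145a-5p, miR-153-3p and miR-15b-5p. Of these, miR-15b-5p had an adjusted p in 9 of the 10, and DESeq2 did not call it. None of the 15 changed direction under any alternative, which the lack of overlap between the times largely set in advance. For the 8 outside these 7 the highest adjusted p was between 0.0507 and 0.0774. The cause was not tested. Falls numbered 7 with RLE factors, 16 with DESeq2, 10 with no filter on low counts and 1 when all 8 libraries shared the spread. Upper-quartile factors gave 7 rises and 10 falls, and depth class as a term 35 and 22. Leaving out 1 library gave 0 to 20 rises and 0 to 15 falls, with fewer libraries behind the spread. At a size of at least 2-fold there were 7 rises and 0 falls. With 20 in place of 100 tags as the minimum, 1 hairpin still shifted between arms.

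Values near 0 changed sign without passing. With upper-quartile factors the log2 differences were -0.0053 for miR-181a-5p, -0.097 for let-7f-5p, -0.082 for miR-27b-3p, -0.13 for miR-124-5p, -0.11 for miR-132-5p, -0.055 for miR-210-5p, -0.15 for miR-29b-2-5p and -0.096 for miR-451a. With no filter they were -0.0075 for let-7f-5p, -0.042 for miR-124-5p, -0.021 for miR-132-5p and -0.0054 for miR-451a. With RLE factors they were -0.012 for miR-124-5p and -0.021 for miR-29b-2-5p. With all 8 libraries in the fit it was -0.0003 for miR-124-5p. With library totals alone it was 0.0010 for miR-184-3p. With limma-voom they were -0.066 for miR-210-5p, -0.21 for miR-29b-2-5p and -0.03 for miR-451a. With 6 libraries in the fit it was -0.0088 for miR-29b-2-5p. With depth class as a term it was -0.015 for miR-29b-2-5p. Leaving out 1 library at a time gave ranges of -0.072 to 0.012 for miR-26a-5p, -0.090 to 0.16 for let-7f-5p, -0.21 to 0.12 for miR-124-5p, -0.34 to 0.030 for miR-128-3p, -0.076 to 0.15 for miR-132-5p, -0.21 to 0.31 for miR-184-3p, -0.52 to 1.32 for miR-210-5p, -0.54 to 1.07 for miR-29b-2-5p, -0.21 to 0.24 for miR-29c-5p and -0.14 to 0.26 for miR-451a. For miR-155-5p, the 1 tag in 12 h library 1 limits what the depth can show.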
